A study of Homo sapiens with 16 samples.

Results

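TAK-981 was added to dexamethasone (Dex) in MM1S, a human multiple myeloma cell line that expresses the glucocorticoid receptor (GR) and responds to Dex, and the RNA was compared with that of cells given Dex alone. The comparison rests on 4 of the 16 RNA-seq libraries of the series, chosen by their labels: 2 libraries of cells treated with 1 μM Dex and 2 of cells treated with 1 μM Dex and 0.1 μM TAK-981 together (com), all for 48 h. All genes of the table were described. Counts were deposited for 23354 genes, and 14215 of them had enough reads to be tested. The vehicle (Veh) and TAK-981 (TAK) libraries of MM1S, 2 each, show what TAK-981 did without Dex, and the Dex and com libraries of MM1R, a Dex-resistant line with little GR, show what it did where Dex has little receptor to act on. Each line is a single culture model, and no label says that the 2 libraries of a group came from separate cultures, so the p-values measure the spread between these libraries, which may be technical.

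SUMO is a small protein that is attached to lysines of other proteins. An E1 enzyme made of SAE1 and UBA2 activates it, E3 ligases direct it to targets and SENP proteases take it off again. TAK-981 blocks the E1, so that no new SUMO is conjugated. GR is a nuclear receptor that waits in the cytoplasm on HSP90 chaperones, enters the nucleus with a glucocorticoid and switches genes on or off. It is itself modified by SUMO, as are many repressors and chromatin proteins, and loss of SUMO conjugation is known to release type I interferon genes.

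The 4 libraries held 15707587 and 17796864 counts (com) and 18880189 and 19893344 counts (Dex). Levels below are in CPM, counts per 1000000 after scaling of library sizes, with replicate 1 before replicate 2, and changes are log2 fold changes of com against Dex with the standard error (SE) of the fit. Of the 14215 genes tested, 6765 passed an adjusted p of 0.05 in edgeR's quasi-likelihood test, which is 47.6%: 22.2% were higher in com and 25.4% were lower. The median change of all genes was 0.00651. The change was at least 2-fold in 1400 of those genes, 807 of them higher and 593 lower. GAPDH itself fell by 0.66 ± 0.069 on the log2 scale, from 979 and 1076 CPM in Dex to 627 and 671 CPM in com. It was at 1712 and 1617 CPM in Veh and 932 and 1045 CPM in TAK, so this reference was lower with either drug alone than in Veh. With the GAPDH count as the reference the median change of all genes became 0.67, with 10937 genes higher and 582 lower. Changes are therefore given relative to the bulk of genes, and a gene that fell by less than GAPDH did lies above 0 on the GAPDH scale. Of the 21 lists with a median below 0, 18 have one above 0 on that scale, and the 3 that stay below 0 are DNA replication, mitosis and the replication-dependent histones. MALAT1, a nuclear long non-coding RNA, took 6.034% and 6.114% of the counts in com but 3.466% and 3.246% in Dex. The 12 plasma cell markers were all measured and summed to 5390 and 5343 CPM without scaling in com and 6178 and 6175 in Dex. Of the T and NK cell markers 4 of 14 were abundant enough to test, of the myeloid markers 3 of 11, of the erythroid and megakaryocyte markers 2 of 10, and these 3 sets summed to at most 38.8 CPM in any of the 4 libraries. The myeloid sum was 36.5 and 38.8 in com and 22.7 and 22.6 in Dex. Of 14 stromal and epithelial markers 6 were tested, and their sum, most of it VIM, was 213 and 227 in com and 262 and 305 in Dex. CD3D had 0 counts in each of the 4 libraries and LYZ at most 1. The 2 Dex libraries differed from each other more than the 2 com libraries did, and the chi-square of their counts divided by its degrees of freedom was 19.2 against 4.63, and WDR74, MIR663AHG and MIR3648-1 were among the genes that differed most between the 2 Dex libraries.

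**Figure D1:**
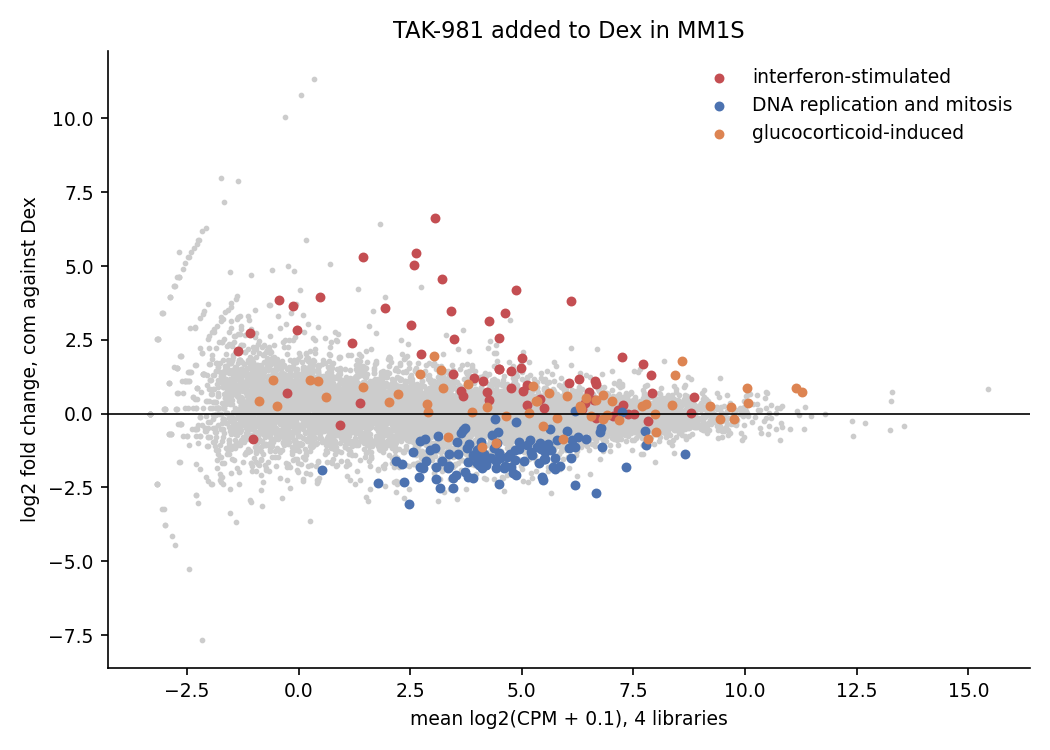
Change against level for the 14215 genes tested. The x axis is the mean of log2(CPM + 0.1) over the 4 libraries and the y axis is the log2 fold change of com against Dex. Grey points are genes, and coloured points are the interferon-stimulated genes, the DNA replication and mitosis genes, and the glucocorticoid-induced genes. Most of the first set lies above 0 and nearly all of the second below 0.

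Among the 12 higher genes with the smallest p, MX1, XAF1, IFI44L and PARP14 are interferon response genes, and HCP5 is a transcript of the HLA region. Others were NOL4L, ATF7IP, CBLN2, ABCA1, PRAG1 and NCAPD3. The gene with the smallest p among the lower ones was FAM111B, a serine protease, at 130.2 and 124 CPM in Dex and 19.8 and 19.4 CPM in com. The remaining lower genes were DTL, CLSPN, MCM4, TOP2A, BRCA1, STMN1, WDR76, NCAPG, ATAD2, KIF11 and TYMS, most of which act in DNA synthesis, its checkpoint or chromosome segregation.

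NOL4L was at 9.07 and 8.67 CPM in Dex and 77.8 and 81.5 CPM in com. Its change was 3.17 ± 0.091 (adjusted p = 2.25e-14). CBLN2, a secreted synapse-organising protein, was at 30.1 and 33.3 CPM in Dex and 148 and 146 CPM in com, a change of 2.21 ± 0.075. ABCA1, the transporter that exports cholesterol from the cell, was at 15.9 and 15.8 CPM in Dex and 65.4 and 67.8 CPM in com. PRAG1, a pseudokinase, rose by 2.24 ± 0.094, and NCAPD3, a condensin II subunit, rose by 1.43 ± 0.061. None of the 12 higher or 12 lower genes had overlapping groups, which the rule that chose them required.

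Of 29 SUMO genes tested, 12 rose (41.4%, against 22.2% of all genes) and 5 fell (17.2%, against 25.4%), and the median change was 0.08. Both subunits of the E1, the target of TAK-981, fell. SAE1 was at 76.2 and 81.4 CPM in Dex and 44.7 and 45.2 CPM in com, a change of -0.81 ± 0.067 (adjusted p = 1.47e-08), and UBA2 was at 137 and 129.8 and 115 and 99 CPM, a change of -0.32 ± 0.074. Neither gene's com libraries overlapped its Dex libraries.

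Among the modifiers, SUMO3 was at 96.1 and 102 CPM in Dex and 146 and 153 CPM in com, a rise of 0.59 ± 0.063. SUMO2, which differs from SUMO3 by only a few residues, rose by 0.40 ± 0.089. Of 10 E3 ligases 7 rose, among them PIAS2 by 0.54 ± 0.10 and PIAS1 by 0.35 ± 0.076. Of 10 proteases, SENP7, which trims SUMO2/3 chains, rose by 0.65 ± 0.12 while DESI1 fell by 0.31 ± 0.058. Without Dex replicate 2 the count of SUMO genes that rose was 7 in place of 12. PML nuclear bodies are assembled through SUMO, and 5 of the 10 genes of that list rose. SP100 was at 83.8 and 70.6 CPM in Dex and 138 and 140.3 CPM in com, and ATRX, a chromatin remodeller found there, rose by 0.48 ± 0.072. HIPK2, a kinase of these bodies, fell by 0.42 ± 0.059.

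FKBP5, a classic GR target that encodes a co-chaperone of the receptor (chromosome 6, 35541362 to 35696397, minus strand in hg19), was at 68.6 and 69 CPM in Veh and 1725 and 1602 CPM in Dex. Adding TAK-981 brought FKBP5 to 3025 and 3107 CPM, a further rise of 0.88 ± 0.061 (adjusted p = 1.36e-09). TAK-981 without Dex changed it the other way, to 40.3 and 43.7 CPM, a change of -0.71 ± 0.068. The 2 changes differed by 1.59 ± 0.091 (adjusted p = 5.71e-09). The receptor gene NR3C1 was at 257 and 239 CPM in Dex and 286 and 278 CPM in com, a rise of 0.18 ± 0.071 (adjusted p = 0.041) that did not pass without com replicate 1, com replicate 2 or Dex replicate 2, at 0.16, 0.20 and 0.13, nor with DESeq2, at 0.17. NR3C2, the mineralocorticoid receptor, which also binds glucocorticoids, was at 11.7 and 11 and 17.7 and 15.3 CPM.

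The chaperones that hold GR ready fell while its coactivators rose. Of 12 chaperone genes 9 fell and only FKBP5 rose. HSP90AA1 was at 393 and 421 CPM in Dex and 259 and 239 CPM in com, and HSP90AB1 at 1151 and 1244 and 730.1 and 792 CPM. FKBP4, the immunophilin that counteracts FKBP5 on the receptor complex, fell by 0.66 ± 0.09, and the co-chaperones STIP1 and PTGES3 fell by 0.39 ± 0.06 and 0.31 ± 0.065. Of 9 coregulators 5 rose and none fell. NCOA2, a p160 coactivator of GR, rose by 0.45 ± 0.074, NCOA1 by 0.41 ± 0.095 and NCOA3 by 0.29 ± 0.067. The corepressor NCOR1 was at 0.02 ± 0.066 (adjusted p = 0.81).

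Of 57 glucocorticoid-induced genes tested, 30 were higher in com than in Dex (52.6%, against 22.2% of all genes). Another 10 were lower (17.5%, against 25.4%), and the median change was 0.34. The median was 0.32 with TAK-981 alone, 0.26 for the same addition in MM1R and 0.45 for Dex against Veh. The list is not limited to genes that Dex raised here: CDKN1C, which rose most, was lower in Dex than in Veh. The change was higher with Dex than without it in 8 members (14%, against 5.47% of all genes) and lower in 15 (26.3%, against 9.48%), although it was lower in 9 without com replicate 1, Dex replicate 2 or Veh replicate 1 and in 8 in a fit of the MM1S libraries alone. The members went separate ways. CXCR4, the receptor that keeps plasma cells in the marrow, was at 25 and 23 CPM in Veh, 222 and 216 CPM in Dex and 535 and 551 CPM in com, with a change of 1.31 ± 0.063 (adjusted p = 1.01e-11). TAK-981 alone left it at 27.4 and 27.2 CPM, and the difference between the changes was 1.13 ± 0.099 (adjusted p = 5.94e-07). DDIT4, an inhibitor of mTORC1, was at 721 and 837 CPM in Dex and 1380.3 and 1443 CPM in com. TXNIP, which restrains glucose uptake, was at 726 and 615 CPM in Veh, 2324 and 2316 CPM in TAK, 1854 and 1971 CPM in Dex and 3181 and 3219.8 CPM in com, so that either drug alone gave a level above Veh and the combination the highest. The smaller step on top of Dex (0.74 ± 0.066 against 1.79 ± 0.068) differed by -1.05 ± 0.093.

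KLF9 was at 50.3 and 54 CPM in Dex and 76.9 and 82 CPM in com, and ZBTB16, a transcription factor that is nearly silent without steroid, was at 0.987 and 1.54 CPM in Veh, 38.7 and 37.4 CPM in Dex and 60.2 and 62.7 CPM in com. IL7R was at 0 and 0.0513 CPM in Veh, 0.156 and 0.257 CPM in TAK, 5.75 and 5.04 CPM in Dex and 14.6 and 15.6 CPM in com. SMAP2 was at 929 and 967 CPM in Dex and 1187 and 1244 CPM in com. TSC22D3, the glucocorticoid-induced leucine zipper, was at 501 and 584 CPM in Dex and 632 and 662 CPM in com, and its rise of 0.25 ± 0.081 did not pass without com replicate 2 (0.22) or Dex replicate 1 (0.15). In KLF9, ZBTB16, IL7R and SMAP2, which were chosen after their values were seen, both com libraries were above both Dex libraries. RASD1, a glucocorticoid-induced small GTPase, was low throughout, at 4.2 and 4.03 CPM in Dex and 7.99 and 12.9 CPM in com, a rise of 1.35 ± 0.20.

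Other genes that Dex had raised went back down when TAK-981 was added. BCL6, a repressor needed by germinal centre B cells, was at 2.07 and 1.59 CPM in Veh, 31.7 and 28.4 CPM in Dex and 13.3 and 16.8 CPM in com, a change of -0.99 ± 0.12 (adjusted p = 1.47e-06). KLF6 was at 227 and 219 CPM in Veh, 307 and 304 CPM in Dex and 162 and 175 CPM in com. LDLRAD4, an inhibitor of TGF-beta signalling, was at 11.8 and 9.64 CPM in Veh, 26.7 and 24.1 CPM in Dex and 11.1 and 12.2 CPM in com. NFIL3, a basic leucine zipper repressor, was at 200.4 and 184 CPM in Veh, 318 and 318 CPM in Dex and 205 and 212 CPM in com. The com libraries of these 4 genes were all below the Dex libraries. The Dex against Veh and the com against Dex comparisons share the Dex libraries, so the opposite directions are given side by side and not as a relation.

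**Figure D2:**
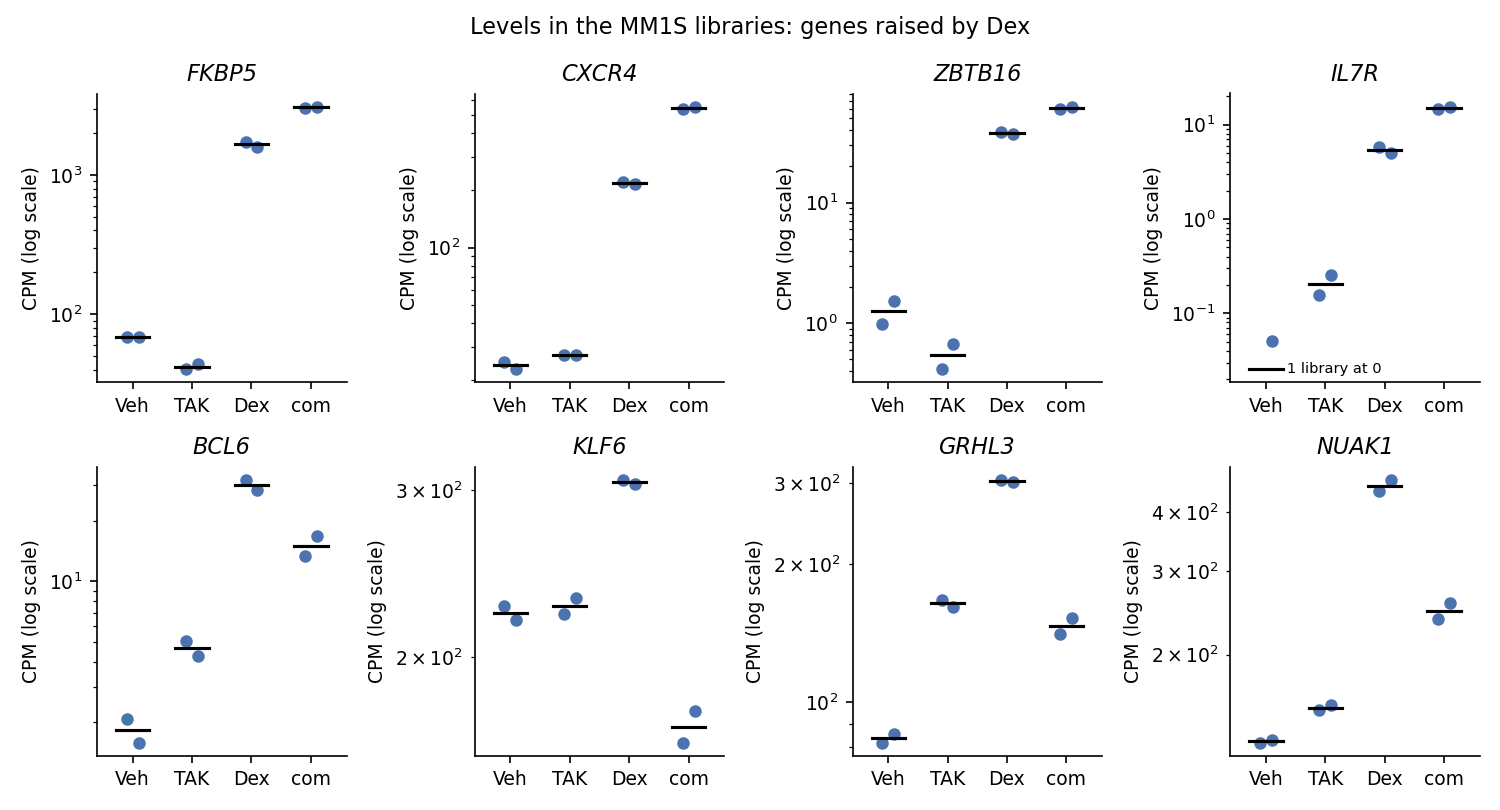
Levels of 8 genes in the 8 MM1S libraries. The x axis gives the 4 groups and the y axis CPM on a log scale, each point is a library and the bar is the mean of 2. FKBP5, CXCR4, ZBTB16 and IL7R were highest in com, whereas BCL6, KLF6, GRHL3 and NUAK1 were highest in Dex.

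Of 65 interferon-stimulated genes tested, 53 rose (81.5%, against 22.2% of all genes) and 1 fell, and the median change was 1.18. MX1, a GTPase that blocks viral ribonucleoproteins (chromosome 21, 42792520 to 42831141, plus strand in hg19), was at 17.6 and 18.7 CPM in Dex and 249.7 and 263 CPM in com, a change of 3.82 ± 0.075 (adjusted p = 7.67e-17). XAF1, a pro-apoptotic zinc finger protein, was at 6.74 and 6.86 and 126 and 120.3 CPM. IFI44L was near silent in Dex at 0.622 and 0.958 CPM and reached 84 and 74.1 CPM in com. PARP14, a mono-ADP-ribosyltransferase, was at 81.3 and 74.3 and 305 and 291 CPM, and TRIM22, a ubiquitin ligase, was at 0.829 and 1.16 and 34.8 and 31.8 CPM. The 2 groups did not overlap in any of these genes, and com lay several times above Dex. The rule that chose MX1, XAF1, IFI44L and PARP14 required groups apart and a change of at least 2-fold. TRIM22 was chosen for its small p, so none of this adds to the counts above.

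The letters GAAANNGAAA, the core of the interferon-stimulated response element, were searched on both strands from 250 bases before to 50 after the start of each gene in RefSeq promoter sequences (GRCh38.p14). They stood in 34 of the 51 interferon-stimulated genes tested that had such a sequence (66.7%) and in 3.65% of all 27305 promoters, or 3.12% of those of tested genes. Matches can overlap where the element repeats. The sites of 3 strongly raised genes and of the beta-2-microglobulin gene are shown as 30 bases with the matched letters in capitals, since these letters are in most of the members that have a sequence.
MX1 (chr21:41420559-41420588, plus strand): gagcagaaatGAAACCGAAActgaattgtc
IFI44L (chr1:78620365-78620394, plus strand): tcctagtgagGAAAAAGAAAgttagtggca
PARP14 (chr3:122680800-122680829, plus strand): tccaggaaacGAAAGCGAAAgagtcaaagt
B2M (chr15:44711369-44711398, plus strand): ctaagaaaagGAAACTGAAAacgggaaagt

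The interferon ligand genes IFNB1, IFNA1, IFNL1 and IFNG had too few counts to be tested. IFNB1 had 2 and 0 counts in com and 0 and 0 in Dex. Downstream of the receptor, IRF7, the factor that amplifies interferon output, rose by 1.17 ± 0.072, IRF3 by 0.49 ± 0.083 and STAT2 by 0.47 ± 0.059. All 5 inhibitors of the pathway rose, among them USP18 by 2.83 ± 0.43 and SOCS1 by 0.86 ± 0.15. Of the receptor chains, IFNAR1 rose by 0.34 ± 0.071 and IFNAR2 fell by 0.30 ± 0.059, and the kinase JAK2 fell by 0.51 ± 0.076.

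Of 9 sensors of foreign or misplaced nucleic acid 6 rose and none fell. DDX58 (RIG-I) was at 15.9 and 14.9 CPM in Dex and 35.9 and 38.9 CPM in com, IFIH1 (MDA5) at 91.9 and 88.1 and 142 and 148 CPM, and TLR3, the endosomal receptor for double-stranded RNA, at 0.415 and 0.555 and 2.73 and 2.86 CPM. MB21D1 (cGAS) was at -0.03 ± 0.085 (adjusted p = 0.82). Of 10 adaptors and kinases of this pathway 4 rose and 2 fell. TMEM173 (STING) was at 1.35 and 1.11 CPM in Dex and 0.805 and 0.44 CPM in com, a fall (adjusted p = 0.037) that did not pass without com replicate 2, Dex replicate 1 or Dex replicate 2, with log2 fold changes of -0.60, -0.85 and -1.13.

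Class I antigen presentation genes split by step. All 6 chains of the class I molecules rose. HLA-B was at 263 and 322 CPM in Dex and 645 and 685 CPM in com, HLA-F at 10.9 and 13.1 and 37 and 36.4 CPM and B2M at 971 and 1019.8 and 1674 and 1432 CPM. Reads of HLA genes may be shared among near-identical genes, so the values of single HLA genes are uncertain. NLRC5, the transactivator of class I genes, rose by 0.87 ± 0.1. In contrast the class I assembly chaperones CALR, PDIA3 and CANX fell by 0.66 ± 0.078, 0.59 ± 0.069 and 0.55 ± 0.052, and the peptide transporter TAP1 was at 0.01 ± 0.076 (adjusted p = 0.91). TAP1 had risen by 0.68 ± 0.075 with TAK-981 alone, and the changes differed by -0.67 ± 0.11 (adjusted p = 3.87e-04). Of 10 class II genes none rose and 2 fell, where 22.2% of all genes rose and 25.4% fell. The highest change, 1.11 in HLA-DQB1, did not pass. With library sizes alone as the scale 1 rose and 2 fell. Whether this short list differs from all genes was not tested. CD74, the invariant chain, was at 1080.5 and 1106 CPM in Veh, 505 and 507 CPM in Dex and 389 and 443 CPM in com, and the transactivator CIITA was at 0.05 ± 0.11 (adjusted p = 0.73). Among ligands of T and NK cells, PDCD1LG2 (PD-L2) was at 3.27 and 2.37 CPM in Dex and 5.39 and 5.72 CPM in com.

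**Figure D3:**
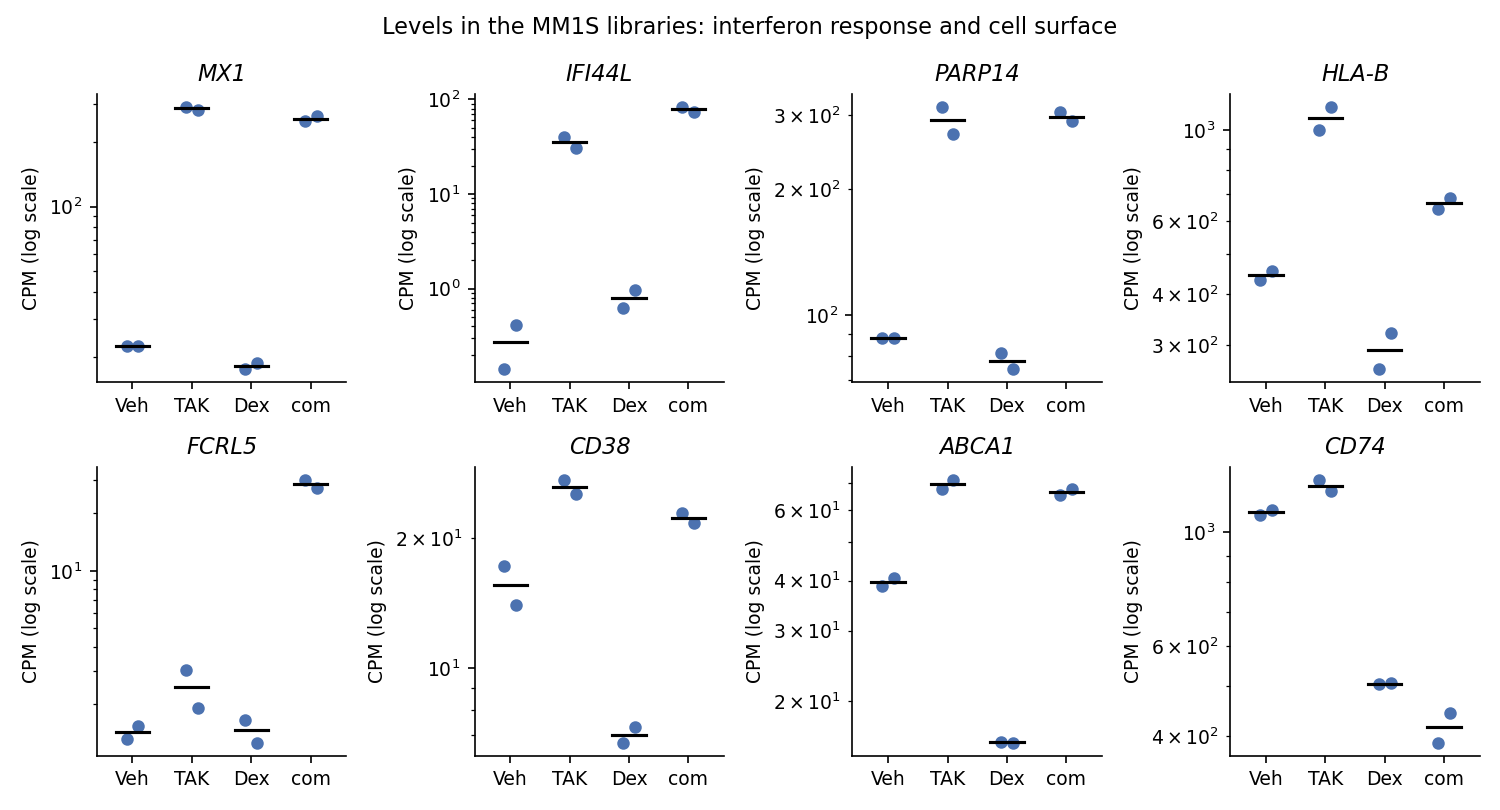
Levels of 8 genes of interferon response and of the cell surface in the 8 MM1S libraries. The x axis gives the 4 groups and the y axis CPM on a log scale, each point is a library and the bar is the mean of 2. MX1, IFI44L, PARP14 and HLA-B were high in both TAK-981 groups, FCRL5 was high only in com, CD38 and ABCA1 were lowest in Dex, and CD74 was low in both Dex groups.

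DNA replication genes fell as a group. Of 54 tested, 52 fell (96.3%, against 25.4% of all genes), none rose, and the median change was -1.29. Of the licensing factors, which load the helicase in G1, CDC6 was at 24.6 and 26.7 CPM in Dex and 4.71 and 4.34 CPM in com and CDT1 at 16.3 and 20.1 and 3.78 and 3.96 CPM. MCM4, a subunit of the helicase, was at 162 and 178 and 30.8 and 32.3 CPM, and CDC45, which activates it, was at 15.1 and 16.3 and 1.73 and 1.98 CPM, a change of -3.07 ± 0.14. CLSPN, the claspin that relays fork stalling to CHEK1, was at 49.6 and 52.2 and 9.72 and 10 CPM. All 9 genes of nucleotide supply fell. RRM2, the regulatory subunit of ribonucleotide reductase, was at 489.9 and 487 CPM in Veh, 149 and 180.0 CPM in TAK, 233 and 280.5 CPM in Dex and 37.2 and 42.1 CPM in com, and TYMS, thymidylate synthase, was at 85.7 and 97.5 and 20.5 and 20.7 CPM. RRM2 was thus already lower in either drug alone than in Veh, and lowest in com.

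E2F1, the factor that drives this program, was at 27.3 and 37.2 CPM in Dex and 5.39 and 5.66 CPM in com, a change of -2.54 ± 0.17, and E2F8 fell by 2.21 ± 0.13 and E2F2 fell by 1.55 ± 0.11. The letters TTTCCCGC and TTTGGCGC, which are cores of the E2F element, were searched on both strands in the same promoter windows. At least 1 of them stood in 17 of 46 replication genes with a promoter sequence (37.0%), in 4 of 54 mitosis genes (7.41%) and in 2.31% of all 27305 promoters, or 3.75% of the 10518 promoters of tested genes. They also stood in genes that rose, among them MDM2, RASD1 and IFIH1. The sites of 5 genes that fell are shown, with the matched letters in capitals, since E2F1 is among them.
CLSPN (chr1:35769965-35769994, plus strand): gctgttcttgcTTTCCCGCccagccagagt
TYMS (chr18:657603-657632, minus strand): tccgcgcgcctTTTCCCGCggccgtcccgc
UHRF1 (chr19:4909476-4909505, minus strand): gctctgattttTTTCCCGCgaaaactcggc
DTL (chr1:212035729-212035758, plus strand): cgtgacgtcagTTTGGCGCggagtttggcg
E2F1 (chr20:33686387-33686416, minus strand): ggcaaaaaggaTTTGGCGCgtaaaagtggc

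Of 63 mitosis genes tested, 62 fell (98.4%, against 25.4% of all genes) and none rose, with a median change of -1.50. TOP2A, the topoisomerase that untangles chromosomes, was at 297 and 303 CPM in Dex and 86.6 and 85.3 CPM in com. CDK1 was at 56.3 and 55.4 and 14.6 and 13.4 CPM, the kinesin KIF11 at 90.8 and 91.1 and 31.3 and 32.2 CPM, and BUB1, a spindle checkpoint kinase, at 119 and 112 and 40.1 and 41.5 CPM. The proliferation marker MKI67 was at 1289.6 and 1228 CPM in Veh, 479 and 513 CPM in TAK, 656 and 636 CPM in Dex and 226 and 272 CPM in com. Of 53 histone genes expressed with replication, 45 fell (84.9%, against 25.4% of all genes), 1 rose, and the median change was -1.22. Many of these are near-identical copies, so single members are uncertain.

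In G1, CCND2, the D-type cyclin most abundant here, was at 1309 and 1362 CPM in Dex and 677 and 749.7 CPM in com, while CCND1 was under 5 CPM in all 4 libraries and did not pass the test (adjusted p = 0.23). CDK4 fell by 0.60 ± 0.078 and CDK2 by 1.28 ± 0.11. CDKN1C (p57) was at 8.13 and 8.41 CPM in Veh, 3.84 and 4.44 CPM in Dex and 15.4 and 16.5 CPM in com, a rise of 1.95 ± 0.15. CDKN1B (p27) rose by 0.33 ± 0.066 and CDKN1A (p21) fell by 0.42 ± 0.073. E2F5, an E2F that represses with RB family proteins, rose by 1.13 ± 0.13.

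Homologous recombination and Fanconi genes fell with replication. Of 53 repair and checkpoint genes 36 fell (67.9%, against 25.4% of all genes) and 4 rose (7.55%, against 22.2%). BRCA1 was at 62.7 and 60.7 CPM in Dex and 16.2 and 17.3 CPM in com, FANCI at 109 and 109 and 28.1 and 32 CPM, and EXO1, the nuclease of end resection, at 30 and 32.1 and 6.81 and 7.2 CPM. WEE1, which holds CDK1 inactive, fell by 1.80 ± 0.084. Of 15 homologous recombination genes 14 fell, and of 6 end joining genes 3 fell.

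Of 33 p53 target genes 15 were higher (45.5%, against 22.2% of all genes) and 5 were lower (15.2%, against 25.4%). Their median change was 0.25. ZMAT3, an RNA-binding p53 target, was at 17.9 and 17.5 CPM in Dex and 57.5 and 56.1 CPM in com, and MDM2, the ubiquitin ligase that degrades p53, at 1142 and 1045 and 1862 and 1776 CPM. SAT1, which breaks down polyamines, rose by 0.95 ± 0.084, while PERP fell by 0.68 ± 0.064. In the BCL2 family, which sets the threshold of apoptosis, 3 of 5 anti-apoptotic members rose and 1 fell, and 4 of 8 BH3-only members rose and 1 fell. BCL2 rose by 0.46 ± 0.054 and MCL1 by 0.37 ± 0.059. Of the BH3-only members that promote death, BCL2L11 (BIM) was at 226 and 240.2 CPM in Veh, 234 and 241 CPM in TAK, 308 and 287 CPM in Dex and 359 and 372 CPM in com. BMF was at 205 and 235 CPM in Veh, 406 and 447 CPM in TAK, 468 and 515 CPM in Dex and 614 and 669 CPM in com. BBC3 (PUMA) rose by 0.58 ± 0.12. The effectors BAX and BAK1 were at -0.04 ± 0.094 and -0.13 ± 0.10, and neither passed the test.

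Among death receptors and their ligands, TNFSF10 (TRAIL) was at 7.05 and 6.66 CPM in Dex and 17.6 and 17.5 CPM in com. Its receptor TNFRSF10B rose by 0.50 ± 0.067 while TNFRSF10A fell by 0.45 ± 0.078 and FAS by 0.49 ± 0.10. CFLAR, which blocks caspase-8 at the receptor, was at 671 and 571 and 967 and 949.9 CPM. BIRC3, an inhibitor of apoptosis and a ligase of NF-kB signalling, was at 223 and 193 and 751 and 684 CPM, a change of 1.78 ± 0.10, and BIRC5 (survivin), a mitosis gene, fell by 1.85 ± 0.099. Of 32 NF-kB genes 13 rose (40.6%, against 22.2% of all genes) and 2 fell (6.25%, against 25.4%). With DESeq2 10 of them rose, and 9 of 30 rose when the other groups were left out. RELB rose by 0.51 ± 0.083 and the inhibitor NFKBIA by 0.45 ± 0.085, while CCL3, a chemokine, was at 472 and 447 CPM in Veh, 83.6 and 98.6 CPM in Dex and 39.2 and 39.6 CPM in com. No direction was common to the AP-1 and immediate early genes, of which 13 of 35 rose (7 without com replicate 2) and 7 fell, among them FOSL2 at -1.67 ± 0.12.

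MYC itself was at 354 and 356 CPM in Veh, 224 and 219 CPM in TAK, 456 and 471 CPM in Dex and 256 and 279.7 CPM in com. Of the 18 genes of its network tested, 4 rose (22.2%, the share of all genes) and 6 fell (33.3%, against 25.4%). The cofactors RUVBL1, RUVBL2 and WDR5 fell by 0.54 ± 0.084, 0.54 ± 0.078 and 0.60 ± 0.09. The partner MAX was at 0.02 ± 0.068 (adjusted p = 0.8). Ribosome biogenesis, a program that MYC is known to drive, fell: 56 of 70 genes were lower and none higher, with a median (0.30 on the GAPDH scale) of -0.36. NOLC1 was at 228 and 221 CPM in Dex and 145 and 156 CPM in com, NCL (nucleolin) at 531 and 599 and 342 and 363 CPM, and BYSL at 35.1 and 41 and 20.6 and 21.9 CPM.

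Of 75 cytosolic ribosomal protein genes, 49 fell (65.3%, against 25.4% of all genes) and none rose. The median (a rise of 0.42 on the GAPDH scale) was -0.25. Without Dex replicate 2 the count that fell was 23 and the median was -0.17. Their levels summed to 20569 and 20061 CPM in com and 22846 and 26172 CPM in Dex, so the 2 Dex libraries lay further apart than com lay from the lower of them. These are short genes, with a median length of 1.01 kb. In the shortest 20% of all genes the median change was -0.086 and in the longest 20% 0.091, and replicate 2 of Dex was above replicate 1 by a median of 0.11 in the shortest 20% and below it by 0.089 in the longest. The part of gene length in the falls of ribosomal proteins and other short genes was not tested. Several ribosomal protein genes have many processed copies in the genome, which can take or give reads.

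Of 25 transcription factors of the lineage 5 rose and 8 fell (4 fell without com replicate 1 and 5 without Dex replicate 2, and 3 rose without com replicate 2), and PRDM1 (Blimp-1), which sets plasma cell identity, was at -0.05 ± 0.055 (adjusted p = 0.47). Of all genes 22.2% rose and 25.4% fell. The median change of the 25 factors was -0.0054, close to the 0.00651 of all genes, so the list as a whole had no clear direction. IRF4, on which myeloma cells depend, was at 1198 and 1254 CPM in Veh, 651 and 667 CPM in Dex and 514 and 568 CPM in com. IKZF3 (Aiolos), a target of lenalidomide, rose by 0.20 ± 0.051, and IKZF1 (Ikaros) was at -0.12 ± 0.058 (adjusted p = 0.11), passing only without com replicate 2, at -0.19. MAF was at 2207 and 2264 CPM in Dex and 2338 and 2411 CPM in com (adjusted p = 0.2).

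Surface antigens used as drug targets in myeloma changed individually. FCRL5 (chromosome 1, 157483167 to 157522310, minus strand in hg19), an Fc receptor-like protein of B lineage cells, was at 1.32 and 1.54 CPM in Veh, 3.01 and 1.9 CPM in TAK, 1.66 and 1.26 CPM in Dex and 29.9 and 27.1 CPM in com. Its change on top of Dex was 4.28 ± 0.18 (adjusted p = 2.42e-12), its change by TAK-981 alone was 0.78 ± 0.26, and these differed by 3.50 ± 0.35 (adjusted p = 2.66e-06). Only the 2 com libraries were high. CD38, the target of daratumumab, was at 17.2 and 14 CPM in Veh, 27.2 and 25.3 CPM in TAK, 6.74 and 7.31 CPM in Dex and 22.9 and 21.7 CPM in com, a rise of 1.66 ± 0.11, so that com stood close to TAK and Dex alone was lowest. TNFRSF17 (BCMA) was at -0.10 ± 0.066 (adjusted p = 0.2). GPRC5D fell by 0.60 ± 0.085 and SLAMF7 by 0.21 ± 0.052. IL6R, the receptor for a growth factor of myeloma, was at 935 and 989 and 617 and 679 CPM, and the adhesion receptor CD44 at 919 and 815 and 582 and 606 CPM.

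Of 58 endoplasmic reticulum and unfolded protein response genes 34 fell (58.6%, against 25.4% of all genes) and 4 rose (6.9%, against 22.2%). Of 20 chaperones and folding enzymes 18 fell (90.0%). HSP90B1 was at 895 and 933 CPM in Dex and 605 and 601 CPM in com, HYOU1 at 369 and 419 and 219 and 232 CPM and PDIA6 at 345 and 370.1 and 231 and 234 CPM. The exception was ERO1B, an oxidase that drives disulfide formation, at 7.31 and 6 and 28.8 and 29.7 CPM, a rise of 2.14 ± 0.13. Of 32 proteasome subunits 26 fell (81.2%), none rose, and the median (0.33 on the GAPDH scale) was -0.34. Of 20 heat shock genes 8 fell (40.0%, against 25.4% of all genes) and 2 rose (10.0%, against 22.2%). HSPD1 fell by 0.73 ± 0.066 and AHSA1 by 0.69 ± 0.077. The 2 that rose were HSPA1B, by 0.49 ± 0.094, and DNAJB4, by 0.52 ± 0.10.

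Of 38 amino acid and ATF4-linked genes 23 fell (60.5%, against 25.4% of all genes) and 5 rose (13.2%, against 22.2%). The falls were led by the transporters SLC1A4 (429 and 451 CPM in Dex, 217 and 232 CPM in com) and SLC7A5 (136 and 143 and 56 and 61.6 CPM). DDIT3 (CHOP), a stress factor of the same pathway, rose by 0.80 ± 0.11. Of 23 glycolysis genes 17 fell (73.9%) and 1 rose (4.35%), whereas of 12 hypoxia genes 2 fell (16.7%) and 5 rose (41.7%). Without com replicate 1, com replicate 2 or Dex replicate 2, 3 genes of both sets together rose, in place of 6. LDHA, which makes lactate, was at 1079.9 and 915 CPM in Veh, 353 and 454 CPM in TAK, 311 and 355 CPM in Dex and 151 and 150.5 CPM in com, and PKM was at 282 and 325 and 153 and 159 CPM. Of 76 genes of oxidative phosphorylation 52 fell and none rose, with a median of -0.30 and a median gene length of 1.16 kb, and 26 fell without Dex replicate 2. In the main fit the share of the oxidative phosphorylation genes that fell was 68.4%, against 25.4% of all genes. The medians of the amino acid, glycolysis and oxidative phosphorylation lists were 0.37, 0.34 and 0.36 on the GAPDH scale.

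Of 38 genes of sterol and fatty acid synthesis and its control, 25 fell and 8 rose (5 without com replicate 2). In the main fit 65.8% of this list fell, against 25.4% of all genes, and 21.1% rose, against 22.2%. FADS1, a fatty acid desaturase, was at 21.4 and 19.4 CPM in Dex and 5.14 and 6.54 CPM in com, a change of -1.79 ± 0.11. SCD, stearoyl-CoA desaturase, was at 876 and 882 CPM in Veh, 201 and 213 CPM in TAK, 89.9 and 92.6 CPM in Dex and 44.3 and 53.7 CPM in com, so the step on top of Dex (-0.89 ± 0.073) was smaller than that of TAK-981 alone (-2.09 ± 0.07), with a difference of 1.19 ± 0.1 (adjusted p = 3.90e-07). MYLIP, a ubiquitin ligase of sterol uptake, rose by 0.87 ± 0.077.

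Of 61 autophagy and lysosome genes 20 rose (32.8%, against 22.2% of all genes) and 8 fell (13.1%, against 25.4%). Of the 20, 15 were among the 37 autophagy genes. Without com replicate 1, and again without Dex replicate 2, 12 rose and 4 fell. GABARAPL1, which helps to close the autophagosome, was at 12.3 and 11.5 CPM in Dex and 17.3 and 16.7 CPM in com. The cathepsins split, with CTSS up by 0.56 ± 0.065 and CTSZ by 0.54 ± 0.082, and CTSB at -0.38 ± 0.064.

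ATF7IP, a partner of the histone methyltransferase SETDB1 in heterochromatin and a reader of SUMO, was at 109 and 109 CPM in Veh, 294 and 291 CPM in TAK, 162 and 153 CPM in Dex and 534 and 548 CPM in com, a rise of 1.78 ± 0.055 (adjusted p = 3.64e-14). Its paralogue ATF7IP2 rose by 1.66 ± 0.16. UHRF1, which guides DNA methylation after replication, was at 21.6 and 26.2 and 2.91 and 3.19 CPM. The writers of H3K9 methylation SUV39H1 and SUV39H2 fell by 1.00 ± 0.16 and 1.01 ± 0.092, and EZH2 fell by 1.07 ± 0.066. TET1 and TET2, which oxidise methylated cytosine, rose by 1.00 ± 0.13 and 0.60 ± 0.093. In the whole list of 35 silencing genes 11 rose (31.4%, against 22.2% of all genes) and 13 fell (37.1%, against 25.4%).

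Nuclear long non-coding RNAs included the most abundant transcript. MALAT1 was at 33911 and 32560.0 CPM in Dex and 58704 and 59825 CPM in com, a rise of 0.83 ± 0.054. KCNQ1OT1 rose by 0.98 ± 0.12. NEAT1, the scaffold of paraspeckles, was at 10101 and 5919.8 CPM in Dex and 14992 and 11427 CPM in com, and with its Dex libraries far apart it did not pass the test (adjusted p = 0.054). Without Dex replicate 1 its change was 1.16 and passed.

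**Figure D4:**
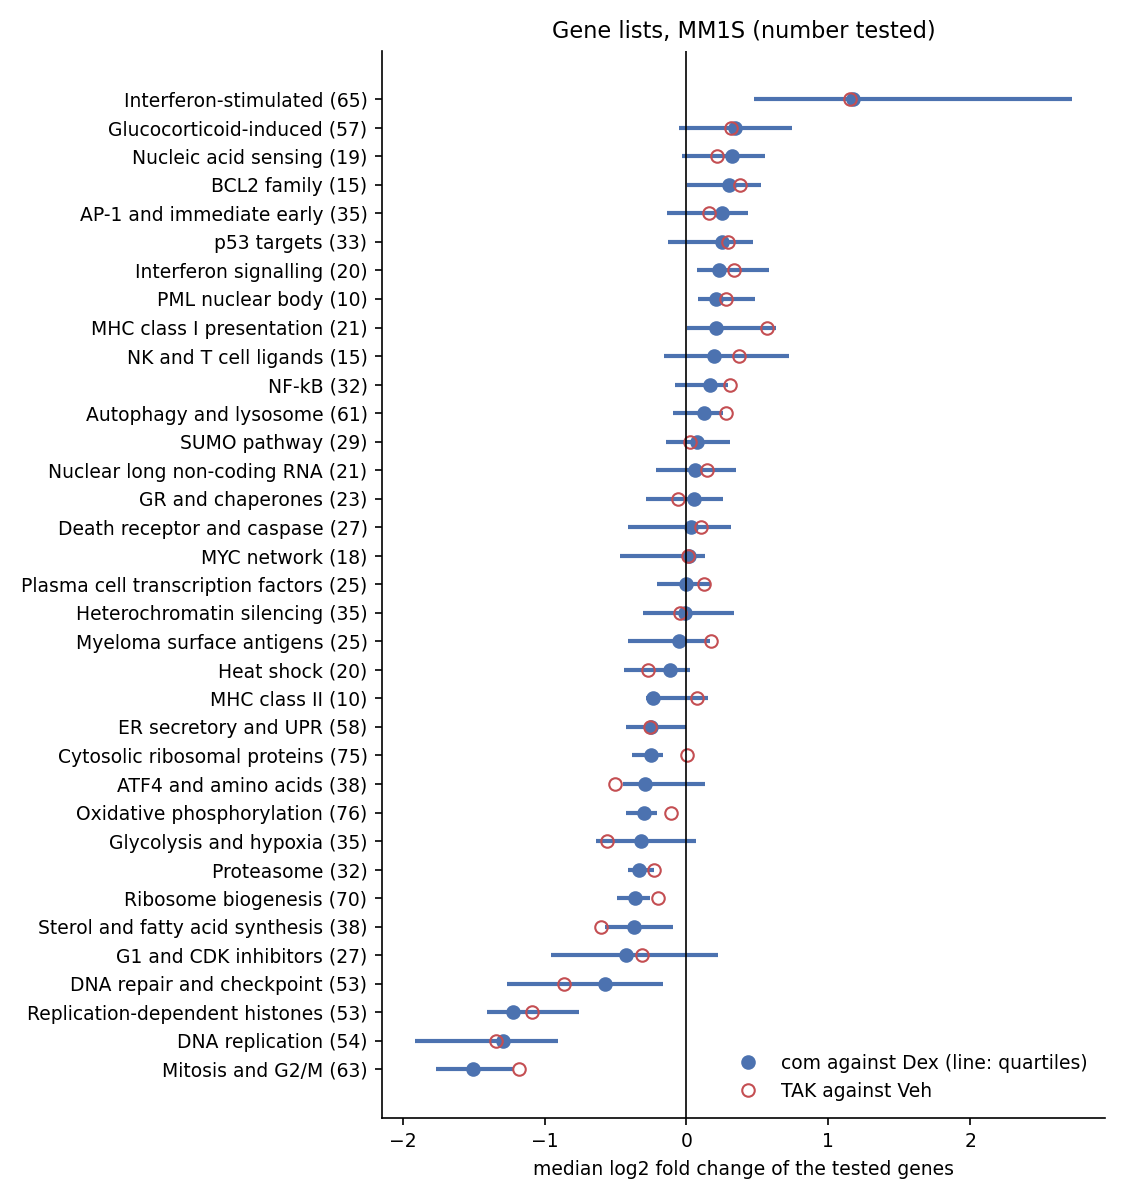
Gene lists in the com against Dex comparison. Each row is a list, the point marks the median change (log2) over its tested genes and the line runs from the lower to the upper quartile, and open points give the median for TAK-981 alone. The interferon-stimulated list lies furthest above 0 and the mitosis and DNA replication lists furthest below, and 15 of the 18 medians plotted under 0 lie above 0 with GAPDH as the reference.

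A few genes were near silent in Dex and expressed in com. Both Dex libraries had at most 3 counts and both com libraries at least 20 counts in 10 genes, and no gene showed the reverse. Of these 10, ATP5EP2 did not pass the test of com against Dex (adjusted p = 0.12) and had 3 and 53 counts in Veh. OGDHL had 7 and 7 counts in Veh. The homeobox gene MEIS3 had 0 and 0 counts in Dex and 259 and 283 in com, which is at least 105-fold above the level of 3 counts per library. KNDC1 had 0 and 0 counts in Dex and 185 and 182 in com, at least 71.1-fold above that level, and SCUBE1 had 0 and 0 counts in Dex and 100 and 122 in com, at least 42.7-fold. MEIS3, KNDC1 and SCUBE1 were on in TAK too, MEIS3 with 702 and 753 counts. OLAH, a thioesterase of fatty acid synthesis, had 70 and 59 counts in com, 2 and 3 in Dex and 0 in each TAK and Veh library. COL4A2 had 37 and 46 counts in com and at most 2 in any other MM1S library, and ACSL6 had 26 and 33 counts in com and at most 3 elsewhere. The difference between the changes with and without Dex did not pass the test in OLAH, COL4A2 or ACSL6 (adjusted p = 0.99992, 0.85 and 0.59).

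The change on top of Dex was compared with the change by TAK-981 alone, which rests on other libraries. Of the 6765 genes past the threshold 5887 (87.0%) moved in the same direction with TAK-981 alone, against 74.2% of all tested genes, and across all genes the 2 changes had a Pearson correlation of 0.69. Genes are not independent replicates, so these are descriptions. The difference between the changes passed the test in 2125 genes (14.9%), where 5.47% of all genes were higher with Dex present and 9.48% were lower, 777 and 1348 genes. With library sizes alone as the scale these were 1033 and 908 genes, and with GAPDH as the reference 243 and 1822, so the balance of the directions depends on the scaling. The number that passed was 1044 without Veh replicate 1, 1348 without Veh replicate 2, 1102 without Dex replicate 2, 1108 without com replicate 1 and 3724 without TAK replicate 1. A fit of the MM1S libraries alone passed 779 genes. Of the 1348 genes whose change was lower with Dex present, 666 had a change below 0 on top of Dex and above 0 without it, and 305 were below 0 in both cases. Of the 777 whose change was higher, 377 were above 0 on top of Dex and below 0 without it.

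Genes with the smallest p in that test and a change shifted upward included FKBP5, MLLT3, TSPYL2 and PLXNA1. MLLT3, a subunit of the super elongation complex, was at 36.8 and 36.6 CPM in Veh, 36.6 and 32.9 CPM in TAK, 18.6 and 20.1 CPM in Dex and 67.4 and 62.3 CPM in com. PLXNA1, a semaphorin receptor, was at 77.1 and 78.4 CPM in Veh, 68.6 and 80.2 CPM in TAK, 118 and 120.4 CPM in Dex and 328 and 352 CPM in com, a difference between changes of 1.58 ± 0.10 (adjusted p = 1.26e-08). TSPYL2, a chromatin protein, was at 9.28 and 8.7 CPM in TAK, 11.8 and 11.7 CPM in Dex and 38.5 and 41.8 CPM in com. TSPYL2, MLLT3 and PLXNA1 were high only in com.

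In the other direction, GRHL3, a grainyhead transcription factor, was at 81.8 and 85.4 CPM in Veh, 167 and 162 CPM in TAK, 305 and 302 CPM in Dex and 141 and 153 CPM in com, with a difference between changes of -2.02 ± 0.083 (adjusted p = 3.98e-11). It was higher with either drug alone than in Veh, and com was below Dex. FBXO32 (atrogin-1), a ubiquitin ligase, was at 39.4 and 33.2 CPM in Veh, 115 and 109.8 CPM in TAK, 218 and 216 CPM in Dex and 207 and 220.3 CPM in com, so that the rise by TAK-981 alone (1.63 ± 0.071) had no counterpart on top of Dex (-0.02 ± 0.065, adjusted p = 0.83). YIPF1 rose less with Dex present (0.84 ± 0.059 against 2.11 ± 0.061), and TCN2, a carrier of vitamin B12, was at 107 and 124 CPM in Dex and 74.6 and 82.1 CPM in com. NUAK1, an AMPK-related kinase, was at 130.4 and 132 CPM in Veh, 442 and 467 CPM in Dex and 238 and 257 CPM in com. In the mitosis list the fall on top of Dex was larger than that by TAK-981 alone in 24 of 63 genes and smaller in none, but in 7 in the fit of MM1S alone and from 12 to 34 with a library left out. Of the 65 interferon-stimulated genes the change was higher with Dex in 9 (1 to 12 with a library left out) and lower in 14 (10 to 16).

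**Figure D5:**
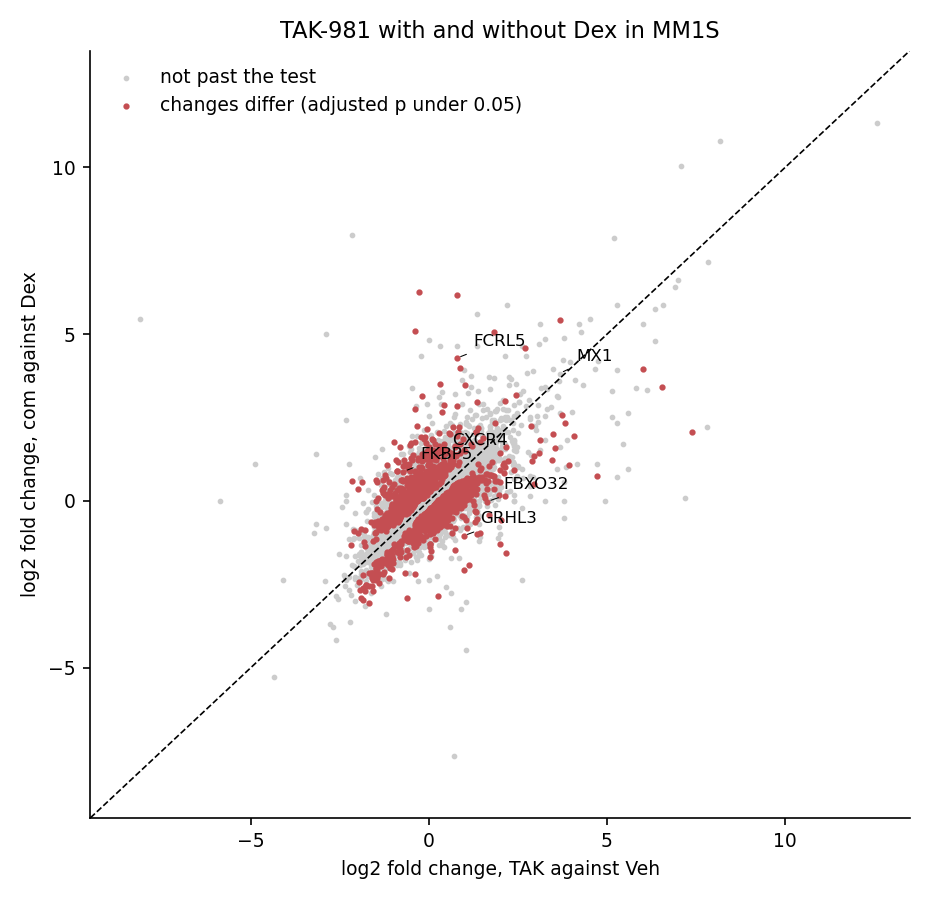
The change by TAK-981 on top of Dex (com against Dex, y axis) against the change by TAK-981 alone (TAK against Veh, x axis), both as log2 fold changes in MM1S. Grey points are the 14215 genes tested, coloured points are genes whose 2 changes differed by the test, and the dashed line marks equal changes. The cloud runs along the line, and FKBP5, CXCR4 and FCRL5 lie above it while GRHL3 and FBXO32 lie below.

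In MM1R the same addition of TAK-981 to Dex was made where GR is scarce. FKBP5 was at 92.5 and 99 CPM in Dex and 56.8 and 59.1 CPM in com of that line. The change differed between lines in 1804 genes (12.7%): 8.93% of all genes had a higher change in MM1R and 3.76% a lower one, 1270 and 534 genes, or 1136 and 191 with GAPDH as the reference. The number that passed was 1173 without MM1R com replicate 1 and 1161 without MM1S com replicate 1. Of the 6765 genes past the threshold in MM1S, 6057 (89.5%) moved in the same direction in MM1R, against 77.1% of all genes, and the Pearson correlation across genes was 0.681. FAM111B changed by -1.06 ± 0.058 there against -2.70 ± 0.069 in MM1S, CLSPN by -0.85 ± 0.055 against -2.37 ± 0.074 and DTL by -1.07 ± 0.058 against -2.62 ± 0.077, and the change was higher in MM1R in 54 of 63 mitosis genes and 26 of 54 replication genes, and lower in 0 of the mitosis genes and 3 of the replication genes. PDGFB, a growth factor, fell by 2.15 ± 0.10 in MM1S and was at 0.07 ± 0.093 in MM1R. FBXO32 rose by 1.63 ± 0.074 in MM1R.

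Genes with a lower change in MM1R included TSPYL2, FKBP5, PLXNA1 and CBLN2. FKBP5 changed by -0.72 ± 0.066 in MM1R, a difference of -1.61 ± 0.09 (adjusted p = 2.71e-09) from the rise in MM1S. CBLN2 rose by 0.60 ± 0.089 in MM1R, a difference of -1.62 ± 0.12, and PLXNA1 was at 0.03 ± 0.07 there. CXCR4 was at 39 and 42.9 CPM in Dex and 48.3 and 48.5 CPM in com of MM1R, with a difference of -1.07 ± 0.093 (adjusted p = 3.99e-07), and FCRL5 changed by 1.15 ± 0.25, a difference of -3.13 ± 0.34. Interferon-stimulated genes rose in MM1R at least as much: the change was higher there in 32 of 65 and lower in 0, with MX1 at 4.99 ± 0.077 and XAF1 at 6.12 ± 0.15.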

How the data were processed

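Total RNA, depleted of ribosomal RNA, was sequenced from MM1S and MM1R cells after 48 h with vehicle, 0.1 μM TAK-981, 1 μM Dex or both drugs, with 2 libraries for each of the 8 groups. The authors deposited raw read counts per gene for 23354 genes with hg19 positions. The submitters' processing notes name bcl2fastq 2.18.0.12, STAR 2.6.0, HTSeq 0.6.0 and edgeR 3.28.1 without their settings, and whether reads were counted by strand is not given in the sources used here, so that overlapping and antisense genes cannot be told apart.

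The counts were analysed with edgeR 4.0.16 in R 4.3.3. Genes were kept by filterByExpr, libraries were scaled by TMM, and all 16 libraries entered a single robust quasi-likelihood fit with a term for each group and 8 residual degrees of freedom. Contrasts were com against Dex in MM1S, that change minus the change of TAK against Veh, and the MM1R change minus the MM1S change, with Benjamini-Hochberg adjusted p under 0.05. Standard errors are the log2 fold change divided by the square root of the F statistic. Library totals ranged from 15707587 to 24796539 counts, which limits the precision of genes with few reads. Alternatives were RLE scaling, library sizes alone, GAPDH as reference, no filter, DESeq2 1.42.0, only the groups compared, a replicate term, and leaving out each library.

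The gene lists were written from general knowledge, and lists and comparisons were chosen with earlier results of these data known, so the lists are described by counts and medians without a set test. Named genes were the 12 higher and 12 lower with the smallest p among those changed at least 2-fold with groups that did not overlap and a log2 CPM that averaged 3 or more; the 5 with the smallest p each way in both difference contrasts; up to 4 per list, or any member of lists of at most 30; genes the study names; and up to 5 genes switched on from at most 3 to at least 20 counts. ATF7IP2, CDC45, CDC6, CDK1, CDT1, DDIT3, DDIT4, GABARAPL1, GAPDH, IL7R, KLF9, LDLRAD4, MKI67, MYLIP, NFIL3, NFKBIA, SMAP2, SUV39H1, TET1, TET2, TSC22D3, TXNIP, ZBTB16, WDR74, MIR663AHG, MIR3648-1, ATP5EP2, OGDHL, COL4A2, ACSL6 and the genes of the closing observations fall outside it and were chosen after their values were seen. Some genes that the rule names are not reported here.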

Additional observations from a re-analysis of the deposited data

Results flagged for a closer look

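The change made by TAK-981 in MM1S differed with and without Dex in 2125 genes by the test of the difference itself. Of the genes described above, the log2 difference was 3.50 ± 0.35 in FCRL5, 1.59 ± 0.091 in FKBP5, 1.58 ± 0.10 in PLXNA1, 1.19 ± 0.1 in SCD and 1.13 ± 0.099 in CXCR4. It was -2.02 ± 0.083 in GRHL3, -1.05 ± 0.093 in TXNIP and -0.67 ± 0.11 in TAP1. In SCD the positive difference is a smaller fall and in TXNIP and TAP1 the negative difference is a smaller rise.

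The change on top of Dex differed between MM1R and MM1S in 1804 genes by the same kind of test. The log2 difference, MM1R minus MM1S, was -3.13 ± 0.34 in FCRL5, -1.62 ± 0.12 in CBLN2, -1.61 ± 0.09 in FKBP5 and -1.07 ± 0.093 in CXCR4. Groups of 2 libraries are too small for a test of single outlying libraries.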

How the results depend on the processing

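With 2 libraries a group, the 6765 genes that passed in com against Dex became 11519 with GAPDH as the reference and 1400 with a change of at least 2-fold, ranged from 5038 to 6635 when a library was left out, and stayed within 1.5 times in the other settings, 5765 with DESeq2. The 2125 genes of the difference with and without Dex became 3579 with a replicate block, 779 in a fit of only the MM1S libraries and 259 with a difference of at least 2-fold, and ranged from 1044 to 3724 with a library left out. The 1804 genes of the difference between lines became 2858 with a replicate block and 331 with a difference of at least 2-fold, and ranged from 1161 to 2159. A group left with 1 library was assumed to vary like the others. Deviations of libraries with the same replicate number correlated by -0.014 to 0.26 over 28 pairs of groups, and by 0.098 between com and Dex of MM1S. The highest value was that of Dex and TAK of MM1S. In com against Dex 7699 genes passed with the replicate block, against 6765 without it. Whether libraries of the same number share an effect was not tested. The replicate block moved NEAT1 (0.74) past the threshold, as DESeq2 (0.71) and no filter did, and ended no call among the named genes. In the fit of only the groups compared IKZF3, SLAMF7 and NR3C1 no longer passed, NR3C1 also failed with RLE scaling, without a filter and with DESeq2, and the median of NK and T cell ligands became -0.048; these causes were not tested.

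GAPDH as the reference adds its own fall to each change by construction. It turned these called falls to values above 0: CALR (0.0029), CANX (0.11), CD44 (0.11), CD74 (0.37), CDK4 (0.068), CDKN1A (0.24), CTSB (0.28), DESI1 (0.35), FAS (0.17), FKBP4 (0.00100), GPRC5D (0.063), HIPK2 (0.24), HSP90AB1 (0.0071), HSP90B1 (0.063), IFNAR2 (0.36), IL6R (0.091), IRF4 (0.37), JAK2 (0.15), NFIL3 (0.0503), NOLC1 (0.085), PDIA3 (0.071), PDIA6 (0.042), PTGES3 (0.35), RUVBL1 (0.12), RUVBL2 (0.12), SLAMF7 (0.44), STIP1 (0.27), TCN2 (0.10), TNFRSF10A (0.21), UBA2 (0.34) and WDR5 (0.067). These uncalled genes, below 0 before, became called rises: BAK1 (0.54), BAX (0.63), FBXO32 (0.64), IKZF1 (0.54), MB21D1 (0.63), PRDM1 (0.61) and TNFRSF17 (0.56). Uncalled genes that were above 0 and became called rises were CCND1 (0.92), CIITA (0.71), MAF (0.75), MAX (0.69), NCOR1 (0.68), TAP1 (0.68) and NEAT1 (1.37). The list medians that turned were those of MHC class II (0.43), G1 and CDK inhibitors (0.24), DNA repair and checkpoint (0.082), Ribosome biogenesis (0.30), Cytosolic ribosomal proteins (0.42), ER secretory and UPR (0.42), ATF4 and amino acids (0.37), Proteasome (0.33), Heat shock (0.55), Sterol and fatty acid synthesis (0.29), Glycolysis and hypoxia (0.34), Oxidative phosphorylation (0.36), Plasma cell markers (0.48), Plasma cell transcription factors (0.65), Myeloma surface antigens (0.60), Heterochromatin silencing (0.65), T and NK cell markers (0.35) and Erythroid and megakaryocyte markers (0.55). AHSA1, HSP90AA1, HSPD1, HYOU1, MYC, NCL, PERP, SAE1 and TMEM173 stayed below 0 on that scale without passing. Depth limits genes with few reads: the ligands of interferon, at most 2 counts each in com and Dex for IFNB1, could not be tested.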

Other observations

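Zinc finger genes named ZNF leaned upward, and more so on chromosome 19, a pattern seen only after the values were known. Of all genes tested 22.2% were higher and 25.4% lower. Of 210 tested ZNF genes on chromosome 19, where many of them lie in clusters and repress transcription through KRAB domains, 119 were higher in com than in Dex (56.7%) and 5 were lower (2.38%), with a median change of 0.45. Of 242 ZNF genes on other chromosomes 92 were higher (38.0%) and 23 lower (9.5%), with a median of 0.18. The 721 other genes on chromosome 19 had a median of -0.075, with 117 higher (16.2%) and 204 lower. The median of the chromosome 19 ZNF genes was 0.45 with TAK-981 alone, 0.50 in MM1R and 0.05 for Dex against Veh. Clustered ZNF genes are close copies of each other, so reads of single members may be shared.

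Several genes of signalling and blood cell identity lay outside the lists. PPP2R3A, a regulatory subunit of protein phosphatase 2A, was at 2.87 and 3.43 CPM in Veh, 6.17 and 4.74 CPM in TAK, 5.08 and 4.34 CPM in Dex and 34.9 and 33.1 CPM in com, and high only in com. LPCAT2, an enzyme of phospholipid remodelling, was at 7.33 and 6.97 CPM in Veh, 10.5 and 7.88 CPM in TAK, 3.73 and 3.98 CPM in Dex and 23.2 and 26 CPM in com. RAB20, a small GTPase of endosomes, was at 4.46 and 4.74 CPM in Dex and 18.6 and 19 CPM in com, and SOCS2, a feedback inhibitor of cytokine signalling, at 11.2 and 11.2 and 29.7 and 28.1 CPM.

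MYB, a transcription factor of immature and dividing blood cells, was at 32.6 and 28.2 CPM in Veh, 4.62 and 5.4 CPM in TAK, 14.6 and 12.8 CPM in Dex and 1.49 and 2.25 CPM in com. GFI1, a transcriptional repressor, was at 22.7 and 22.2 CPM in Veh, 5.24 and 5.46 CPM in TAK, 11.1 and 11.4 CPM in Dex and 1.86 and 2.53 CPM in com. Both genes were lowest in com. HMOX1, which breaks down haem, was at 17.1 and 17.1 CPM in Dex and 4.03 and 3.46 CPM in com, a change of -2.19 ± 0.14.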
